A study of Homo sapiens with 16 samples.

Results

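The genes described here are 8 members of the Notch signalling pathway: the receptors NOTCH1, NOTCH2 and NOTCH3, the ligands JAG1 and JAG2, and the target genes HES1, HEY1 and NRARP. They were chosen by symbol, and all 8 were found among the 18227 genes of the deposited tables. The tables hold mRNA sequencing values of 16 libraries from A549 and H2023, established human lung cancer cell lines. In each line, wild-type cells were set beside cells labelled as a knockout of ZC3H12A, which encodes the RNase Regnase-1. Normal culture lasted 3 days and the stem-cell-enriched culture (Onco in the titles) 7 days for both genotypes, so that the type of culture and its length cannot be told apart. This gives 8 groups of 2 libraries: A549 or H2023, wild type or labelled knockout, normal or stem-cell-enriched culture. The titles name a single clone for the knockout of each line (g2-3 in A549, g2-1 in H2023), so a difference between genotypes cannot be told apart from a difference between that clone and the wild-type cells. Nothing in the labels says that the libraries of a group came from separate cultures, and p-values then measure only the spread between these libraries, which may be technical.

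Notch receptors are membrane proteins that are activated by ligands on a neighbouring cell. Jagged and Delta-like ligands, once taken up by the cell that carries them, pull on the receptor, ADAM metalloproteases and gamma-secretase cut it, and the freed intracellular domain enters the nucleus. There it joins the DNA-binding protein RBPJ and a Mastermind co-activator and switches on genes such as HES1, HEY1 and NRARP. HES1 and HEY1 are transcriptional repressors, and HES1 also represses its own gene. NRARP binds the intracellular domain complex and dampens the signal. In the airway the pathway is known for the choice between secretory, ciliated and neuroendocrine fates.

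The sequences before the starts of HES1 and NRARP are shown because both are textbook targets of the Notch complex and because HES1 mRNA rose and NRARP mRNA fell with culture in A549 wild type and in the H2023 labelled knockout. They come from RefSeq (GRCh38.p14), the 250 bases before the annotated start, written 5' to 3' on the strand of the gene. Promoters of 7 of the 8 genes were matched by symbol. Capitals mark TGGGAA, the core letters of the RBPJ site, searched on both strands. The HES1 stretch is chr3:194135898-194136147 on the + strand and the NRARP stretch is chr9:137302272-137302521 on the - strand.
HES1: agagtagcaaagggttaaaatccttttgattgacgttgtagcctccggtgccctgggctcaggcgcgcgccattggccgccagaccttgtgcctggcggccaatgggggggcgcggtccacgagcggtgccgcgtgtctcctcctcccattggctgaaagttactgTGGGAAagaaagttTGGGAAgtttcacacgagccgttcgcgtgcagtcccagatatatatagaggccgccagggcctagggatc
NRARP: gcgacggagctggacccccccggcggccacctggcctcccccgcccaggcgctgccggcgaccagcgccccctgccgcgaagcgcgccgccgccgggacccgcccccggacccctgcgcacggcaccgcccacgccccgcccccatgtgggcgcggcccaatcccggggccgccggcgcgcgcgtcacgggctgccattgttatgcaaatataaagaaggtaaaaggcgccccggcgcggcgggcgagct
The HES1 stretch held 2 matches, both on the strand shown, beginning at positions -84 and -70 from the start. None of the other 6 stretches, NRARP's included, held the letters, which stand in 20.8% of 35116 promoters of this length. The N box CACNAG, the letters to which HES repressors bind, was searched likewise and found 3 times in the HES1 stretch, beginning at -165, -132 and -58, and in that of NOTCH3 a single time, at -211. It stands in 32% of promoters, and no match overlapped a TGGGAA match. G and C made up 59.2% of the HES1 stretch and 78.4% of the NRARP stretch. A match is a description of letters only, and binding was not measured.

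Values are TPM (transcripts scaled to a common total), a level per length scaled within each library, so levels of different genes can be set side by side. Differences are on the log2(TPM + 1) scale, which understates the change of low genes, with a standard error (SE) and a p adjusted over all 18227 genes from limma. Each fold given beside such a difference is a ratio of TPM + 1, not of TPM, and likewise understates the change of low genes. A gene is said to rise, fall or differ where its adjusted p is below 0.05. How deeply a library was sequenced is unknown, since TPM keeps no depth. The share of TPM in mitochondrial genes was 10.3% to 18.7% in normal and 19.5% to 25.6% in stem-cell-enriched culture. ZC3H12A mRNA had a log2 difference, labelled knockout minus wild type, of -0.80 in A549 normal culture (adjusted p = 0.00387), 0.24 in the stem-cell-enriched culture of A549 (adjusted p = 0.304), 0.54 in H2023 normal culture (adjusted p = 0.0835) and 1.43 in the stem-cell-enriched culture of H2023 (adjusted p = 4.50e-04). By the threshold the mRNA thus fell in A549 normal culture, rose in the stem-cell-enriched culture of H2023 and passed in neither other comparison. An mRNA level does not show whether the gene was edited. The edit itself was not examined, so the word labelled is kept in each direction drawn from it. All 6 epithelial markers were measured, with a sum of at least 2570 TPM in each library. KRT8, KRT18 and KRT7 stood at 630.21 TPM or more in each library. EPCAM went down to 0.37 TPM and KRT19 to 0.29 TPM, so the sum does not stand for each marker. The 3 fibroblast markers among the rows used summed to at most 10.1 TPM and the endothelial marker among them to at most 2.76 TPM. The 2 markers of blood cells among the rows used, CD14 and CD68, summed to between 31.3 and 226.0 TPM. COL1A2, DCN, THY1, CDH5, KDR, TIE1, VWF, CD3E, HBB, MS4A1 and PTPRC were not among the rows used.

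The 8 genes covered a wide range of levels. NOTCH3 and JAG1 were the most abundant, with means over the 16 libraries of 67.4 and 45.8 TPM. NOTCH2 followed at 22.6 TPM, JAG2 at 15 TPM, HES1 at 11.6 and NOTCH1 at 7.4 TPM. NRARP averaged 3.14 TPM and HEY1 2.37 TPM. NOTCH3 was the gene with the widest span among the receptors, from 6.01 TPM in an A549 library to 180.7 TPM in an H2023 library.

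In GRCh38 (GENCODE v29) NOTCH1 lies on chromosome 9 from 136494433 to 136545786, NOTCH2 on chromosome 1 from 119911553 to 120069626 and NOTCH3 on chromosome 19 from 15159038 to 15200981. JAG1 lies on chromosome 20 from 10637684 to 10673999 and JAG2 on chromosome 14 from 105140981 to 105168824, all of these on the - strand. HES1 is on the + strand of chromosome 3, from 194136145 to 194138732, and NRARP on the - strand of chromosome 9, from 137300482 to 137302251. NOTCH2 shares most of its 5' exons with the near-identical genes NOTCH2NLA, NOTCH2NLB and NOTCH2NLC, which were listed at group means of 4.0 to 6.6, 1.66 to 2.91 and 1.68 to 5.46 TPM, and how the authors divided reads between them is not given in the sources used here. NOTCH2 values are therefore uncertain. The JAG2 locus is marked in GENCODE as overlapping another, so its value may hold reads of both.

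**Figure D1:**
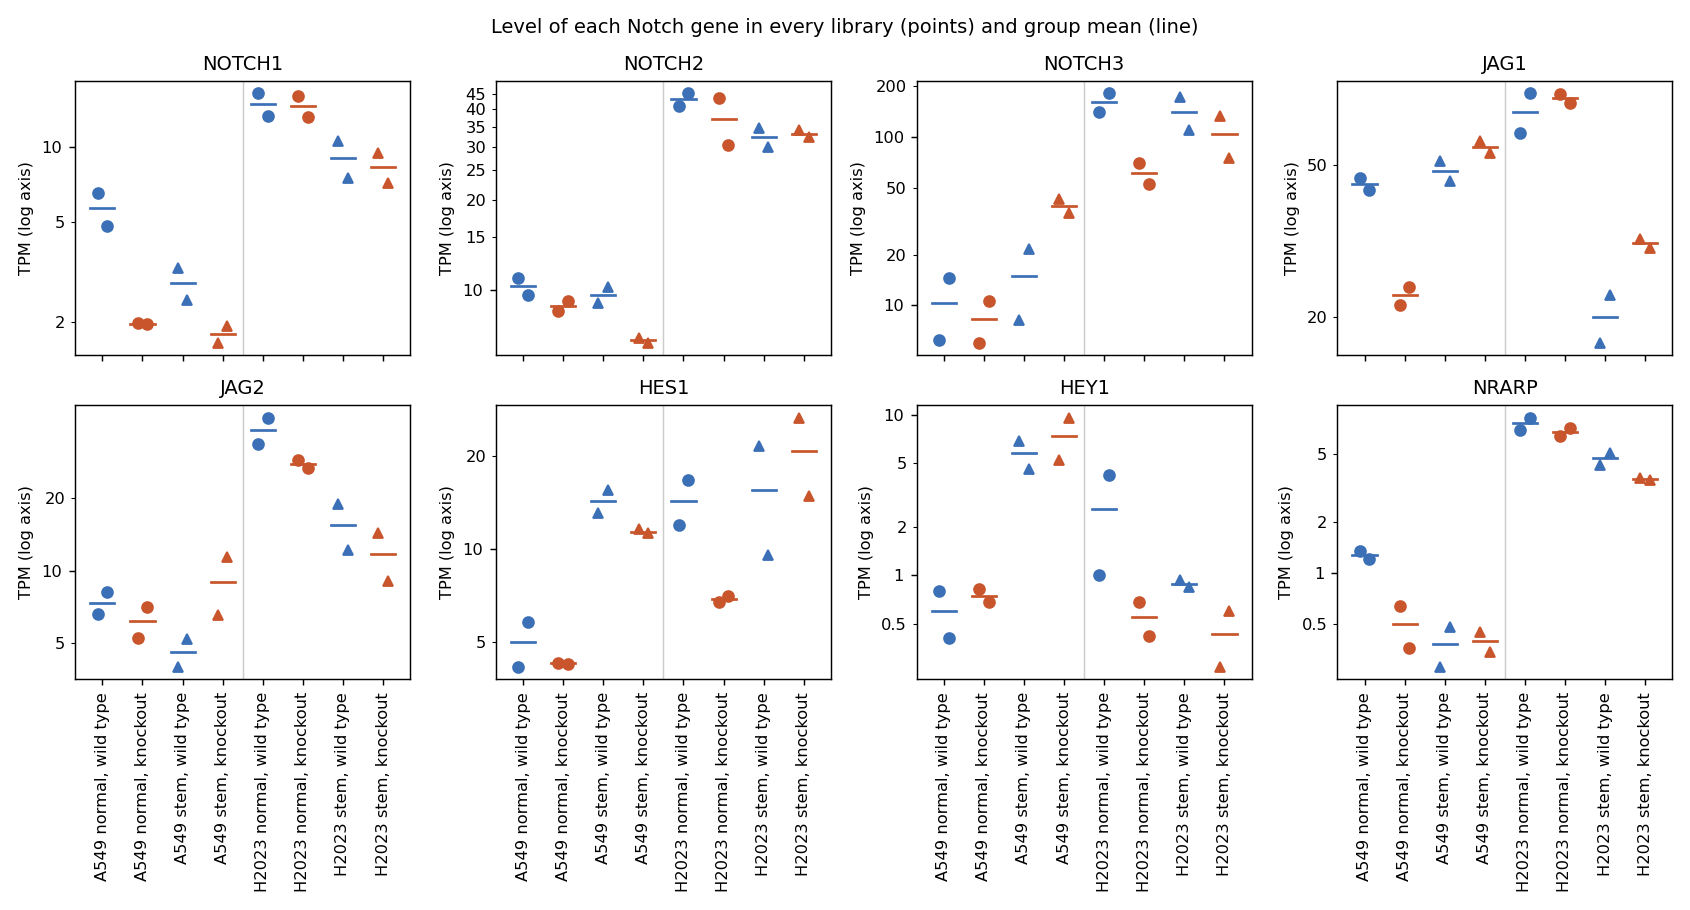
TPM of each gene in every library, on a log axis that differs between panels. Circles are normal and triangles stem-cell-enriched culture, blue is wild type and orange labelled knockout, and the horizontal line is the mean of the 2 libraries of a group. NOTCH1, NOTCH2, NOTCH3 and NRARP sit higher in each H2023 library than in any A549 library. What share of all genes separates the lines without overlap was not counted, so this is not shown to be particular to these genes. Between the wild-type lines limma called 41.5% of all genes (normal) and 47.8% (stem-cell-enriched). HEY1 stands out in the 4 A549 stem-cell-enriched libraries at 4.62 to 9.57 TPM.

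Ordered by mean, NOTCH1 was highest in the normal culture of H2023, with wild type at 14.9 TPM and the labelled knockout at 14.6 TPM, which overlapped. The H2023 stem-cell-enriched groups followed at 9.06 and 8.31 TPM and also overlapped. All A549 groups were lower, at 5.71 TPM in normal wild type, 2.87 TPM in stem-cell-enriched wild type, and 1.96 and 1.78 TPM in the labelled knockout of normal and stem-cell-enriched culture. NRARP had nearly the same order, from 7.55 TPM in H2023 normal wild type through 6.74, 4.7 and 3.55 TPM in the other H2023 groups to 1.27 TPM in A549 normal wild type. The last 3 NRARP groups, at 0.5, 0.395 and 0.38 TPM, overlapped as neighbours. HEY1 had another order, with 7.39 and 5.75 TPM in A549 stem-cell-enriched labelled knockout and wild type, overlapping, then 2.6 TPM in H2023 normal wild type and less than 1 TPM in the other 5 groups. JAG1 was the gene whose order mixed the lines most: H2023 normal groups were highest at 74.8 and 68.8 TPM, H2023 stem-cell-enriched wild type was lowest at 20.0 TPM, and the A549 groups lay from 22.8 to 55.7 TPM.

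The first comparison asked how the 8 genes differed between labelled knockout and wild type within a line and culture. In A549 normal culture a receptor, a ligand and a target fell together. NOTCH1 measured 6.58 and 4.84 TPM in the wild-type libraries and 1.97 and 1.96 TPM in the labelled knockout. The groups did not overlap, and NOTCH1 fell by 1.17 on the log2(TPM + 1) scale (SE 0.22, limma adjusted p = 0.0037), a 2.24-fold difference of TPM + 1. Its means were 5.71 and 1.96 TPM. JAG1, a ligand of the Jagged class, measured 46.3 and 42.9 TPM against 21.5 and 24.0 TPM. It fell by 0.94 (SE 0.14, adjusted p = 0.00105), 1.92-fold. NRARP, the feedback inhibitor, measured 1.34 and 1.21 TPM against 0.64 and 0.36 TPM and so fell by 0.61 (SE 0.17, adjusted p = 0.0264). These 3 of 8 genes compare with 17.7% of all genes called in that contrast. The NRARP call did not hold without wild-type replicate 1 (-0.57, adjusted p = 0.139), wild-type replicate 2 (-0.65, adjusted p = 0.0684) or labelled knockout replicate 2 (-0.47, adjusted p = 0.183), nor with only the 4 libraries of the comparison (adjusted p = 0.0702). The NOTCH1 and JAG1 calls held without each library in turn. The other 5 genes did not pass, with differences from -0.23 for NOTCH3 and JAG2 to 0.13 for HEY1. HES1 measured 4.17 and 5.82 TPM in wild type and 4.29 and 4.26 TPM in the labelled knockout, a difference of -0.17 with a 95% interval of -0.88 to 0.54. The authors' deposited table also calls NOTCH1 (log2 fold change -1.50, adjusted p = 3.21e-11) and JAG1 (-0.89, adjusted p = 1.33e-09), not NRARP (-1.26, adjusted p = 0.111). It calls 22.1% of all genes in that comparison. The 6 epithelial markers summed to 9170 to 9350 TPM in these wild-type libraries and to 2570 to 5010 TPM in the labelled knockout, and their part in these differences was not tested.

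In A549 stem-cell-enriched culture none of those 3 genes passed in limma, and NOTCH3 rose instead. NOTCH3 measured 8.15 and 21.6 TPM in wild type and 42.9 and 35.2 TPM in the labelled knockout. The lower labelled knockout library exceeded the higher wild-type library, and the difference was 1.47 (SE 0.46, adjusted p = 0.0389), a 2.77-fold difference, against 20.7% of all genes called. That call rested on each of 3 libraries: the difference was 0.82 without wild-type replicate 1 (adjusted p = 0.322), 1.33 without labelled knockout replicate 1 (adjusted p = 0.159) and 1.61 without labelled knockout replicate 2 (adjusted p = 0.106). It also did not pass in fits of the 8 libraries of the line (adjusted p = 0.0696) or of the 4 of the comparison (adjusted p = 0.084), or in the authors' deposited table (1.16, adjusted p = 0.235). JAG2, the other Jagged ligand, measured 4.0 and 5.19 TPM in wild type and 6.54 and 11.3 TPM in the labelled knockout, without overlap. Its difference of 0.79 (95% interval 0.17 to 1.41) did not pass in limma (adjusted p = 0.0693), but does in the authors' deposited table (1.16, adjusted p = 3.16e-04) and without labelled knockout replicate 1 (1.15, adjusted p = 0.0305). Without labelled knockout replicate 2 it was 0.44 (adjusted p = 0.438). NOTCH2 measured 9.06 and 10.2 TPM against 6.93 and 6.68 TPM, a difference of -0.45 (adjusted p = 0.0662). It passed with differences centred on the median of all genes (-0.49, adjusted p = 0.0459), without mitochondrial genes (-0.49, adjusted p = 0.047) and in the authors' deposited table (-0.61, adjusted p = 0.00146). NOTCH1, at 3.28 and 2.45 TPM against 1.65 and 1.92 TPM, had a difference of -0.47 (adjusted p = 0.159) in limma and of -0.65 (adjusted p = 0.0313) in the authors' deposited table, which calls 3 of the 8 genes and 20.7% of all genes. JAG1, HES1, HEY1 and NRARP had differences of 0.20, -0.30, 0.28 and 0.02, none of which passed. CD14 and CD68 summed to 144 to 226.0 TPM in these wild-type libraries and to 58.6 to 78.8 TPM in the labelled knockout, and their part was not tested.

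In H2023 normal culture no gene of the 8 passed in limma (0 called, 3 at an unadjusted p under 0.05), where 3% of all genes were called. NOTCH3 had the largest difference. It measured 140.3 and 180.7 TPM in wild type and 70.0 and 52.3 TPM in the labelled knockout, without overlap, a difference of -1.38 with a 95% interval of -2.37 to -0.39 (adjusted p = 0.138). That interval rests on the spread of NOTCH3 over all 16 libraries (SE 0.46 in each line and culture), not on these libraries alone. The authors' deposited table gives NOTCH3 an SE of 0.16 in H2023 normal and 0.65 in A549 normal culture. HES1 measured 11.95 and 16.7 TPM against 6.77 and 7.06 TPM, also without overlap, a difference of -0.94 (95% interval -1.65 to -0.23, adjusted p = 0.154). HEY1 measured 1.0 and 4.19 TPM against 0.68 and 0.42 TPM, a difference of -1.06 (adjusted p = 0.162). Its size rests on wild-type replicate 2: without wild-type replicate 1 it was -1.75 and passed (adjusted p = 0.0186), and without replicate 2 it was -0.37. In the authors' deposited table these 3 genes and JAG2 are lower in the labelled knockout: NOTCH3 with a log2 fold change of -1.39 (adjusted p = 1.19e-15), HES1 with -1.05 (adjusted p = 0.00241), HEY1 with -2.08 (adjusted p = 0.0475) and JAG2 with -0.58 (adjusted p = 9.10e-04). These are 4 of 8 genes, against 10.8% of all genes that the same table calls. JAG2 measured 33.3 and 42.9 TPM in wild type and 28.7 and 26.5 TPM in the labelled knockout, a limma difference of -0.44 (adjusted p = 0.466). NOTCH1, JAG1 and NRARP differed by -0.02, 0.13 and -0.14. For NOTCH1 the 95% interval ran from -0.49 to 0.46. The epithelial markers summed to 8750 to 9400 TPM in wild type and to 12300 to 13000 TPM in the labelled knockout here, and their part was not tested.

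In H2023 stem-cell-enriched culture JAG1 was the gene of the 8 that passed. It measured 17.2 and 22.8 TPM in wild type and 32.0 and 30.3 TPM in the labelled knockout, without overlap, and rose by 0.63 (SE 0.14, adjusted p = 0.0273), 1.55-fold, against 5.56% of all genes called. The call did not hold without wild-type replicate 1 (0.43, adjusted p = 0.146), labelled knockout replicate 1 (0.59, adjusted p = 0.118) or labelled knockout replicate 2 (0.67, adjusted p = 0.0938), nor with the 8 libraries of the line (adjusted p = 0.111) or the 4 of the comparison (adjusted p = 0.265). In the authors' deposited table JAG1 is listed at 0.48 on the log2 scale (adjusted p = 0.299), and that table calls 0 of the 8 genes (2 at an unadjusted p under 0.05) and 5.07% of all. The sum of the epithelial markers was 4330 to 4570 TPM in these wild-type libraries and 7770 to 8270 TPM in the labelled knockout, and its part was not tested. HES1 varied most within a group here, at 21.5 and 9.55 TPM in wild type and 26.6 and 14.9 TPM in the labelled knockout, which overlapped. In each genotype replicate 1 was the higher, and same-numbered libraries were not compared as pairs in this fit.

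**Figure D2:**
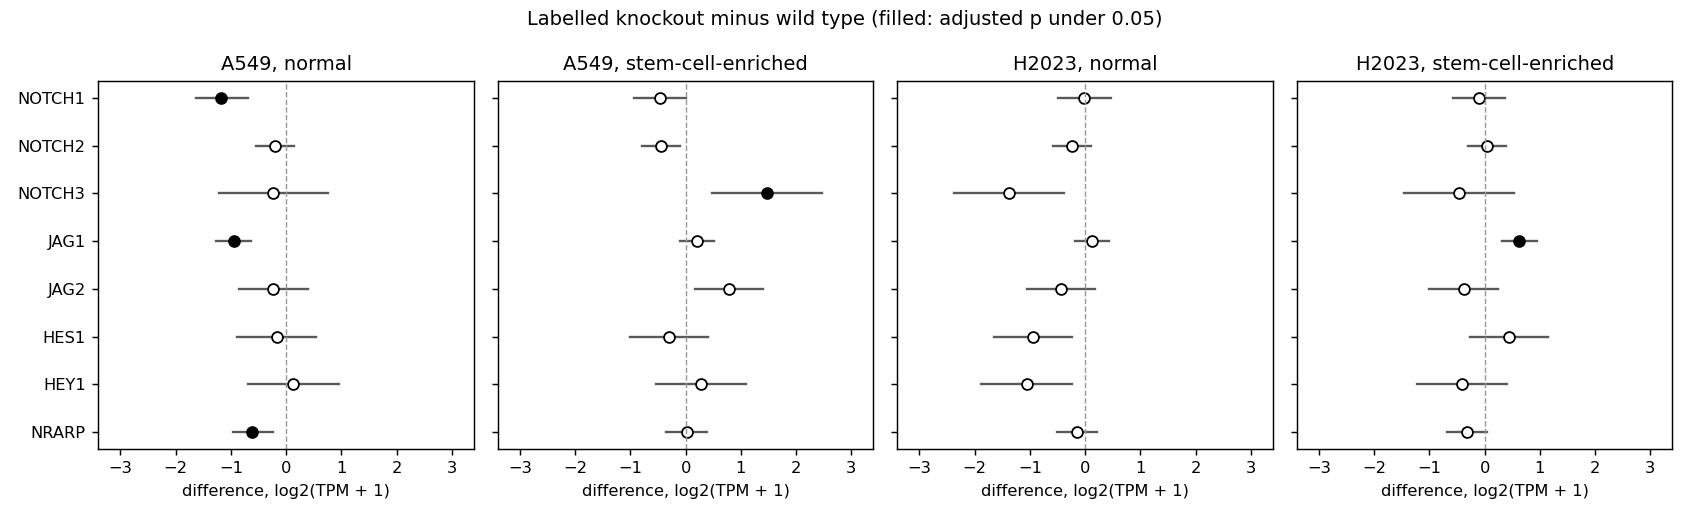
Difference between labelled knockout and wild type of each gene on the log2(TPM + 1) scale, by line and culture, with its 95% interval from limma over 16 libraries. Filled points pass the adjusted p of 0.05: NOTCH1, JAG1 and NRARP in A549 normal culture, NOTCH3 in A549 stem-cell-enriched culture and JAG1 in H2023 stem-cell-enriched culture.

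Whether these differences themselves differed was tested in the same fit. Between cultures of A549, the labelled knockout difference of JAG1 moved from -0.94 in normal to 0.20 in stem-cell-enriched culture, a change of 1.14 (SE 0.20, adjusted p = 0.00662). JAG1 was 1 of 8 genes, against 9.71% of all genes called. For NOTCH1 the change was 0.70 (95% interval 0.03 to 1.37, adjusted p = 0.179), for NOTCH3 1.70 (0.30 to 3.11, adjusted p = 0.12) and for JAG2 1.02 (0.15 to 1.90, adjusted p = 0.134). Between cultures of H2023 limma called 0 of the 8 genes (2 at an unadjusted p under 0.05) and 0.00549% of all genes. HES1 had the largest change there, from -0.94 to 0.44, a change of 1.38 (95% interval 0.38 to 2.38, adjusted p = 0.553). Between lines in normal culture, a comparison added after seeing the data, the labelled knockout difference was higher in H2023 than in A549 by 1.15 for NOTCH1 (SE 0.31, adjusted p = 0.032) and by 1.07 for JAG1 (SE 0.20, adjusted p = 0.00628). These 2 of 8 genes compare with 12.1% of all genes. The NOTCH1 call did not hold without A549 wild-type replicate 1 (0.96, adjusted p = 0.121), either A549 labelled knockout library (1.15 and 1.14, adjusted p = 0.0762 and 0.0856), H2023 wild-type replicate 2 (1.00, adjusted p = 0.115) or either H2023 labelled knockout library (1.01 and 1.28, adjusted p = 0.108 and 0.0547). Between lines in stem-cell-enriched culture limma called 0 of the 8 (3 at an unadjusted p under 0.05) and 16.3% of all genes. NOTCH3 and JAG2 had the largest changes there, -1.93 (adjusted p = 0.0619) and -1.17 (adjusted p = 0.0686).

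The second comparison set stem-cell-enriched beside normal culture within a line and genotype. HES1 and HEY1 rose in A549 of both genotypes. HES1 moved from 4.17 and 5.82 TPM to 13.1 and 15.5 TPM in wild type, a rise of 1.36 (SE 0.33, adjusted p = 0.00518), 2.57-fold. In the labelled knockout it moved from 4.29 and 4.26 TPM to 11.6 and 11.3 TPM, a rise of 1.24 (SE 0.33, adjusted p = 0.0169). All 4 stem-cell-enriched A549 libraries were above all 4 normal ones. The wild-type call was at adjusted p = 0.051 without normal replicate 1 (1.16). The labelled knockout call did not pass without normal replicate 1 (1.24, adjusted p = 0.0751), normal replicate 2 (1.23, adjusted p = 0.0765), stem-cell-enriched replicate 1 (1.22, adjusted p = 0.0828) or stem-cell-enriched replicate 2 (1.26, adjusted p = 0.0664), with little change in size. HEY1 moved from 0.80 and 0.41 TPM to 6.89 and 4.62 TPM in wild type, a rise of 2.06 (SE 0.38, adjusted p = 9.28e-04). In the labelled knockout it moved from 0.82 and 0.68 TPM to 5.21 and 9.57 TPM, a rise of 2.21 (SE 0.38, adjusted p = 0.00128). Both HEY1 calls held without each library in turn.

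In H2023 HES1 rose in the labelled knockout, and HEY1 passed in neither genotype. HES1 measured 11.95 and 16.7 TPM in normal and 21.5 and 9.55 TPM in stem-cell-enriched wild type, a difference of 0.02 with a 95% interval of -0.69 to 0.73. In the labelled knockout HES1 rose by 1.40 (SE 0.33, adjusted p = 0.006), from 6.77 and 7.06 TPM to 26.6 and 14.9 TPM, a call that did not hold without stem-cell-enriched replicate 1 (1.01, adjusted p = 0.0637). HEY1 did not pass in H2023, with differences of -0.77 in wild type (adjusted p = 0.155) and -0.12 in the labelled knockout (adjusted p = 0.859). In wild type it passed without normal replicate 1 (-1.46, adjusted p = 0.0109) and was -0.08 without normal replicate 2 (adjusted p = 0.901), and those replicates stood at 1.0 and 4.19 TPM.

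NRARP fell with culture in 3 of the 4 comparisons. In A549 wild type NRARP moved from 1.34 and 1.21 TPM to 0.28 and 0.48 TPM, a fall of 0.72 (SE 0.17, adjusted p = 0.00414) that held without each library in turn. In the A549 labelled knockout, which was already at 0.64 and 0.36 TPM in normal culture, the difference was -0.10 (adjusted p = 0.732). H2023 wild type moved from 6.95 and 8.15 TPM to 4.31 and 5.08 TPM, where NRARP fell by 0.59 (SE 0.17, adjusted p = 0.0214). The H2023 labelled knockout moved from 6.36 and 7.11 TPM to 3.59 and 3.51 TPM, where NRARP fell by 0.76 (SE 0.17, adjusted p = 0.00416). The H2023 wild-type call did not hold without mitochondrial genes (-0.39, adjusted p = 0.174), when centred on the median of all genes (-0.35, adjusted p = 0.165), with a pseudocount of 0.1 (-0.67, adjusted p = 0.133), or without normal replicate 2 (-0.48, adjusted p = 0.123) or stem-cell-enriched replicate 1 (-0.49, adjusted p = 0.116), and fits of the 8 and 4 libraries gave adjusted p of 0.0509 and 0.136. That of the labelled knockout held in each of these settings and without each library in turn.

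Among the receptors, NOTCH1 fell with culture in 3 of the 4 comparisons. In A549 wild type it moved from 6.58 and 4.84 TPM to 3.28 and 2.45 TPM, so that it fell by 0.79 (SE 0.22, adjusted p = 0.0116). Without normal replicate 1 the difference was -0.60 (adjusted p = 0.108) and without stem-cell-enriched replicate 2 it was -0.64 (adjusted p = 0.0871), and the 4 libraries alone gave an adjusted p of 0.0535. H2023 wild type moved from 16.4 and 13.3 TPM to 10.6 and 7.55 TPM, where NOTCH1 fell by 0.67 (adjusted p = 0.0395). The H2023 labelled knockout moved from 16.1 and 13.2 TPM to 9.45 and 7.18 TPM, where NOTCH1 fell by 0.75 (adjusted p = 0.0196). Neither H2023 call held without mitochondrial genes (-0.45, adjusted p = 0.177, and -0.56, adjusted p = 0.0741) or when centred on the median (-0.43, adjusted p = 0.191, and -0.58, adjusted p = 0.0641). In wild type the call was also lost without normal replicate 1 (-0.52, adjusted p = 0.212), normal replicate 2 (-0.81, adjusted p = 0.0584) or stem-cell-enriched replicate 2 (-0.45, adjusted p = 0.255), and in the labelled knockout without normal replicate 1 (-0.62, adjusted p = 0.138) or stem-cell-enriched replicate 2 (-0.58, adjusted p = 0.146). Fits of the 8 and 4 libraries gave NOTCH1 an adjusted p of 0.0804 and 0.144 in wild type and of 0.0501 and 0.0698 in the labelled knockout. NOTCH3 rose in the A549 labelled knockout, from 6.01 and 10.6 TPM to 42.9 and 35.2 TPM. That difference was 2.15 (SE 0.46, adjusted p = 0.00512), 4.43-fold, and 1.79 without normal replicate 1 (adjusted p = 0.0556). NOTCH3 did not pass in A549 wild type (0.44), H2023 wild type (-0.21) or the H2023 labelled knockout (0.71), and NOTCH2 passed in none of the 4, with differences from -0.41 to -0.09.

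Both ligands fell with culture in H2023 of both genotypes, and in A549 JAG1 rose in the labelled knockout. JAG1 fell in H2023 wild type from 60.7 and 77.0 TPM to 17.2 and 22.8 TPM, by 1.74 (SE 0.14, adjusted p = 2.04e-05), 3.33-fold. It fell in the H2023 labelled knockout from 76.8 and 72.7 TPM to 32.0 and 30.3 TPM, by 1.23 (SE 0.14, adjusted p = 6.32e-05). In the A549 labelled knockout JAG1 rose from 21.5 and 24.0 TPM to 57.7 and 53.7 TPM, by 1.26 (SE 0.14, adjusted p = 8.44e-05). In A549 wild type it measured 46.3 and 42.9 TPM and 51.4 and 45.3 TPM, which overlapped (difference 0.11, 95% interval -0.20 to 0.43). The 3 JAG1 calls held under each alternative run. JAG2 fell in H2023 wild type from 33.3 and 42.9 TPM to 18.9 and 12.1 TPM, by 1.26 (SE 0.29, adjusted p = 0.0063). In the H2023 labelled knockout it fell from 28.7 and 26.5 TPM to 14.3 and 9.08 TPM, by 1.20 (SE 0.29, adjusted p = 0.00681). Without a library the JAG2 calls were lost in wild type for normal replicate 2 (-1.09, adjusted p = 0.0539) and stem-cell-enriched replicate 2 (-0.97, adjusted p = 0.0617) and with only the 4 libraries of the comparison (adjusted p = 0.068), and in the labelled knockout for stem-cell-enriched replicate 2 (-0.90, adjusted p = 0.0726). In A549 JAG2 did not pass, with -0.59 in wild type and 0.44 in the labelled knockout.

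Of the 8 genes, 4 passed in A549 wild type (2 higher, 2 lower), 4 in the A549 labelled knockout (4 higher), 4 in H2023 wild type (4 lower) and 5 in the H2023 labelled knockout (1 higher, 4 lower). The shares of all genes called were 41.5%, 22.4%, 27.4% and 32.5% in the same order. The median of the 8 differences was 0.01, 0.84, -0.63 and -0.44, beside medians over all genes of -0.01, -0.01, -0.18 and -0.12. In H2023 wild type 2 of the 8 were lower, and in the labelled knockout 1 was higher and 3 lower, both without mitochondrial genes and when centred on the median. The mitochondrial share rises with culture in both lines, and beside it the values without mitochondrial genes are given above where they alter a call. CD14 and CD68 together moved from 45.4 to 58.9 TPM in A549 normal wild type to between 144 and 226.0 TPM in stem-cell-enriched culture, from 35.3 to 48.0 TPM to between 58.6 and 78.8 TPM in the A549 labelled knockout, and from 32.6 to 38.4 TPM to between 72.3 and 129 TPM in the H2023 labelled knockout. In H2023 wild type they summed to 36.7 to 40.3 TPM and to 31.3 to 90.1 TPM, which overlapped. The epithelial sum moved from 8750 to 9400 TPM to between 4330 and 4570 TPM in H2023 wild type, and from 12300 to 13000 TPM to between 7770 and 8270 TPM in the H2023 labelled knockout, beside the falls of JAG1, JAG2, NOTCH1 and NRARP. In A549 it moved from 9170 to 9350 TPM to between 6670 and 7540 TPM in wild type and from 2570 to 5010 TPM to between 5660 and 7830 TPM in the labelled knockout. The part of these markers in the culture differences was not tested.

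**Figure D3:**
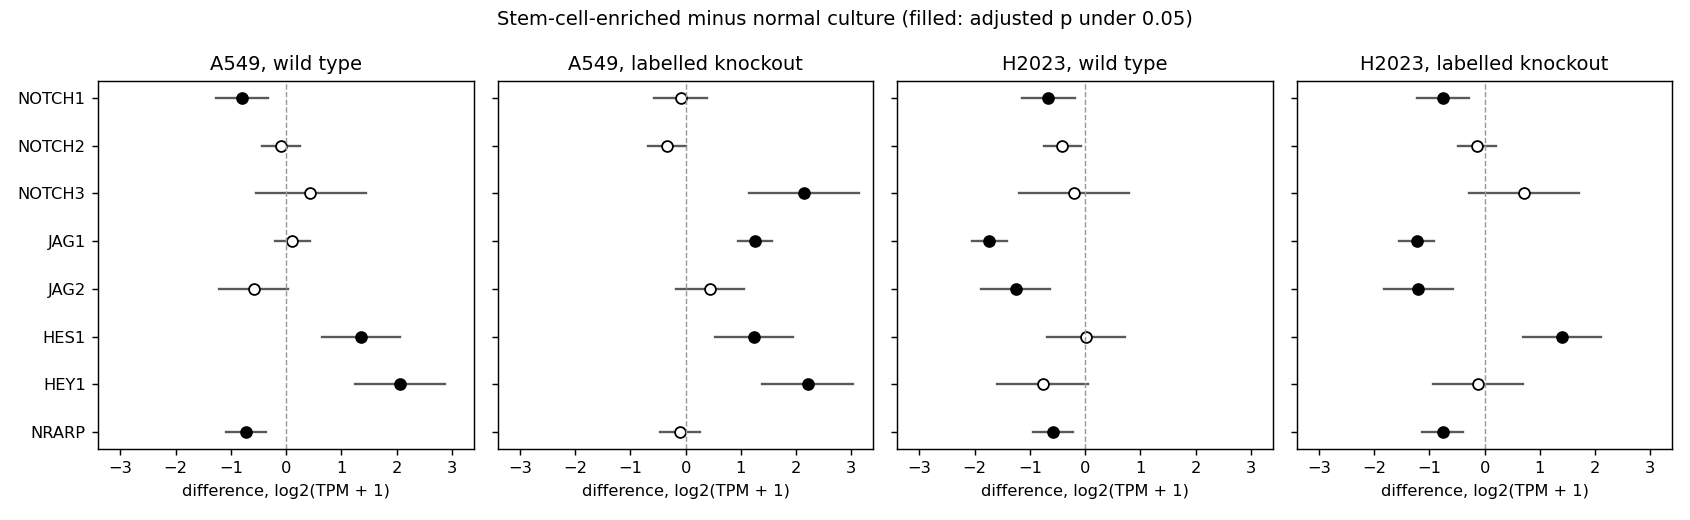
Difference between stem-cell-enriched and normal culture of each gene on the log2(TPM + 1) scale, by line and genotype, with its 95% interval from limma over 16 libraries. Filled points pass the adjusted p of 0.05. HEY1 lies at 2.06 and 2.21 in A549 and at -0.77 and -0.12 in H2023, and JAG1 lies at -1.74 and -1.23 in H2023.

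The difference of the culture effect between lines was tested in contrasts added after seeing the data. In wild type it was lower in H2023 for JAG1 (log2 difference -1.85, SE 0.20, adjusted p = 3.29e-04) and for HEY1 (-2.83, SE 0.53, adjusted p = 0.00551). These are 2 of 8 genes, against 14.1% of all genes. In the labelled knockout 3 of 8 genes differed, against 7.21% of all genes: JAG1 (-2.49, adjusted p = 8.01e-05), JAG2 (-1.64, adjusted p = 0.0304) and HEY1 (-2.33, adjusted p = 0.0222). The 2 wild-type calls and the JAG1 call in the labelled knockout held without each library in turn. JAG2 in the labelled knockout fell short without mitochondrial genes (-1.51, adjusted p = 0.065), when centred on the median (-1.47, adjusted p = 0.0569) and without A549 normal replicate 1 (-1.45, adjusted p = 0.105), A549 normal replicate 2 (-1.83, adjusted p = 0.0513), A549 stem-cell-enriched replicate 2 (-1.28, adjusted p = 0.112), H2023 normal replicate 1 (-1.58, adjusted p = 0.104), H2023 normal replicate 2 (-1.70, adjusted p = 0.0782) or H2023 stem-cell-enriched replicate 2 (-1.34, adjusted p = 0.109). HEY1 in the labelled knockout fell short without A549 normal replicate 1 (-2.39, adjusted p = 0.0591), A549 normal replicate 2 (-2.27, adjusted p = 0.0723), A549 stem-cell-enriched replicate 2 (-1.94, adjusted p = 0.0875), H2023 normal replicate 1 (-2.21, adjusted p = 0.0858), H2023 normal replicate 2 (-2.45, adjusted p = 0.0569) or H2023 stem-cell-enriched replicate 1 (-2.16, adjusted p = 0.0659). The difference of HES1 between lines in wild type, -1.34, did not pass (adjusted p = 0.0743), but did without H2023 stem-cell-enriched replicate 1 (-1.88, adjusted p = 0.0131), and was -0.79 without H2023 stem-cell-enriched replicate 2 (adjusted p = 0.222). In the labelled knockout it was 0.17 (adjusted p = 0.883).

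The third comparison set wild-type H2023 beside wild-type A549 in each culture. In normal culture all 8 genes were higher in H2023, where 41.5% of all genes were called and the median difference over all genes was 0.12. NOTCH3 had the largest difference, at 6.23 and 14.4 TPM in A549 and 140.3 and 180.7 TPM in H2023, or 3.92 (SE 0.46, adjusted p = 3.91e-05) and 15.2-fold. JAG2 (2.22), NOTCH2 (1.97), NRARP (1.91), HES1 (1.35), NOTCH1 (1.25), HEY1 (1.02) and JAG1 (0.61) followed. The HEY1 call (adjusted p = 0.0474) came from H2023 replicate 2, without which the difference was 0.33 (adjusted p = 0.471). It was also lost without A549 replicate 1 (1.19, adjusted p = 0.0789) or A549 replicate 2 (0.84, adjusted p = 0.202), and was 1.70 without H2023 replicate 1 (adjusted p = 0.0023). It did not pass with only the 4 libraries (adjusted p = 0.157), without mitochondrial genes (1.06, adjusted p = 0.0503) or centred on the median (0.85, adjusted p = 0.0903) either. HES1 fell just short without A549 replicate 1 (1.15, adjusted p = 0.0505) or H2023 replicate 2 (1.12, adjusted p = 0.0522), and JAG1 without H2023 replicate 2 (0.44, adjusted p = 0.0627).

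In stem-cell-enriched culture the receptors, JAG2 and NRARP were again higher in wild-type H2023, while JAG1 and HEY1 were lower. The difference was 3.27 for NOTCH3 (SE 0.46, adjusted p = 1.15e-04), 2.05 for NRARP (SE 0.17, adjusted p = 2.25e-06), 1.64 for NOTCH2, 1.54 for JAG2 and 1.37 for NOTCH1. JAG1 measured 51.4 and 45.3 TPM in A549 and 17.2 and 22.8 TPM in H2023, a difference of -1.24 (SE 0.14, adjusted p = 3.01e-05). HEY1 measured 6.89 and 4.62 TPM in A549 and 0.93 and 0.85 TPM in H2023, a difference of -1.82 (SE 0.38, adjusted p = 0.00186). These 7 calls held without each library in turn, against 47.8% of all genes called. HES1 did not pass, with 13.1 and 15.5 TPM in A549 and 21.5 and 9.55 TPM in H2023 (difference 0.01, 95% interval -0.70 to 0.72).

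The rest of the pathway was read from lists by role, of which 72 of 75 listed genes were in the tables, 64 of them outside the 8. In labelled knockout against wild type, 12 of those 64 passed in A549 normal culture (9 higher, 3 lower), 14 in A549 stem-cell-enriched culture (9 higher, 5 lower), 0 in H2023 normal culture by limma (15 at an unadjusted p under 0.05, and 4 called in the authors' deposited table) and 3 in H2023 stem-cell-enriched culture (3 higher). The shares of all genes called by limma were 17.7%, 20.7%, 3% and 5.56% in the same order, and 10.8% in that deposited table, so the list was called about as often as all genes by limma. For culture, 26 passed in A549 wild type (15 higher, 11 lower), 14 in the A549 labelled knockout (7 higher, 7 lower), 17 in H2023 wild type (1 higher, 16 lower) and 18 in the H2023 labelled knockout (7 higher, 11 lower), beside 41.5%, 22.4%, 27.4% and 32.5% of all genes, again close to the shares of the list. The lean to lower calls in H2023 was that of all genes (943 higher to 4043 lower in wild type, 1779 to 4146 in the labelled knockout) and depended on the scaling. Without mitochondrial genes the list had 2 higher and 5 lower in H2023 wild type and 13 higher and 2 lower in the labelled knockout, and centred on the median of all genes it had 3 and 5, and 12 and 6. The median difference over the 64 genes ran from -0.02 to 0.14 in the labelled knockout comparisons and from -0.19 to 0.06 in the culture comparisons, beside medians over all genes of -0.03 to 0.06 and -0.18 to -0.01. For the genes named by rule from these lists and from the lineage lists, 24 of 44 calls held without each library in turn.

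Among the other receptors and ligands, NOTCH4 stayed between 0.28 and 1.47 TPM in all 16 libraries. DLL3, a Delta-like ligand that does not activate receptors on neighbouring cells, fell with culture in A549 wild type from 7.04 and 6.96 TPM to 1.12 and 3.02 TPM (-1.45, SE 0.27, adjusted p = 0.00117). DLK2, a non-canonical ligand, rose in the H2023 stem-cell-enriched labelled knockout from 2.17 and 4.53 TPM to 7.93 and 13.9 TPM (1.46, adjusted p = 0.0318). The DLK2 call was lost without wild-type replicate 1 (1.06, adjusted p = 0.165) or labelled knockout replicate 2 (1.09, adjusted p = 0.187), and in the authors' deposited table.

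Among genes of receptor trafficking and processing, DTX3L, MFNG and FURIN rose with culture in A549 wild type. DTX3L, an E3 ligase of the Deltex family, rose from 7.36 and 5.74 TPM to 53.7 and 26.6 TPM (2.37, SE 0.29, adjusted p = 5.56e-05). In stem-cell-enriched culture it was lower in the labelled knockout, at 13.7 and 12.8 TPM (-1.45, adjusted p = 0.00408, and -0.96 without wild-type replicate 1). MFNG, a Fringe glycosyltransferase that alters which ligands a receptor responds to, rose with culture from 0.49 and 0.51 TPM to 3.36 and 3.78 TPM (1.61, adjusted p = 3.10e-04). It was likewise lower in the stem-cell-enriched labelled knockout, at 0.51 and 0.65 TPM (-1.53, SE 0.25, adjusted p = 0.001). FURIN, the protease that makes the first cut of the receptor, rose with culture from 16.2 and 21.7 TPM to 70.5 and 69.4 TPM (1.84, adjusted p = 3.69e-04). FURIN also rose with culture in the A549 labelled knockout (1.15, adjusted p = 0.0147), where DTX3L (0.80) and MFNG (0.16) did not pass. In A549 normal culture FURIN was higher in the labelled knockout (1.01, adjusted p = 0.0344). That difference was 0.76 to 1.26 on leaving out 1 library. In A549 wild type MIB2, a ligase that drives ligand uptake, rose with culture by 1.17 (adjusted p = 2.34e-04) and NEURL1B, of the same class, fell by 1.17 (adjusted p = 0.00117). Of the 8 genes of ADAM and gamma-secretase cleavage, 3 rose with culture in A549 wild type, where 41.5% of all genes were called, and 1 fell in H2023 wild type, where 27.4% were. APH1B, a gamma-secretase subunit, was 0.90 higher in the A549 normal labelled knockout (adjusted p = 0.00246). ADAM10 fell in H2023 wild type by 0.66 (adjusted p = 0.00914), a call lost without normal replicate 1 (-0.52, adjusted p = 0.0829) or stem-cell-enriched replicate 2 (-0.58, adjusted p = 0.0622), without mitochondrial genes (-0.42, adjusted p = 0.0855) or centred on the median (-0.42, adjusted p = 0.0836).

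In the nucleus, RBPJ itself measured 11.4 to 21.9 TPM and passed in none of the labelled knockout and culture comparisons. MAML2, a Mastermind co-activator, was higher in the A549 stem-cell-enriched labelled knockout, at 5.24 and 4.85 TPM against 1.82 and 1.40 TPM (1.22, SE 0.22, adjusted p = 0.00197). The co-repressor list had 6 of 12 genes lower and none higher in H2023 wild type with culture, and 5 of 12 lower and none higher in the H2023 labelled knockout, where 27.4% and 32.5% of all genes were called. That direction rested on the scaling: without mitochondrial genes 2 were lower and 0 higher in wild type and 2 lower and 2 higher in the labelled knockout, and centred on the median 2 were lower and 1 higher, and 2 lower and 2 higher. In A549 wild type 4 co-repressors fell and 2 rose, beside 41.5% of all genes called (3 and 3 without mitochondrial genes). TLE4 fell from 7.43 and 10.6 TPM to 0.47 and 1.57 TPM (-2.35, adjusted p = 7.06e-05) and SPEN, which binds RBPJ without Notch, fell by 0.98 (adjusted p = 1.26e-04). TLE4 also fell with culture in the A549 labelled knockout (-1.05, adjusted p = 0.0257). Among the H2023 calls counted above, TLE4 fell by 1.09 in wild type and 0.84 in the labelled knockout (adjusted p = 0.0183 and 0.0499). SPEN fell there by 0.89 and 0.75 (adjusted p = 6.57e-04 and 0.00128). In the A549 labelled knockout SPEN did not pass (-0.38, adjusted p = 0.0618). Between genotypes in A549, TLE1 fell by 1.00 (adjusted p = 5.29e-04) and TLE3 rose by 1.37 (adjusted p = 0.0022) in normal culture, and L3MBTL3 was 1.59 higher in stem-cell-enriched culture (adjusted p = 0.00103).

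In the HES and HEY family, 9 of 10 listed genes (HES1, HEY1 and NRARP included) were in the tables and 5 passed with culture in A549 wild type (4 higher, 1 lower), where 41.5% of all genes were called. HES6, which counteracts HES1, rose in H2023 wild type from 5.23 and 2.94 TPM to 12.8 and 20.4 TPM (1.80, SE 0.29, adjusted p = 8.27e-04, or 0.0629 with only the 4 libraries of the comparison). HES1 did not pass in H2023 wild type. In the H2023 labelled knockout both rose with culture, HES6 by 1.19 (adjusted p = 0.0073) and HES1 by 1.40 (adjusted p = 0.006). HES6 did not pass with culture in A549 wild type (0.03) or the A549 labelled knockout (0.52). HES7 rose with culture in the A549 labelled knockout from 0.80 and 0.62 TPM to 4.14 and 2.86 TPM (1.38, adjusted p = 3.75e-04). HES4 measured 23.7 and 11.1 TPM in A549 stem-cell-enriched wild type and 5.87 and 7.57 TPM in the labelled knockout, a difference of -1.17 (adjusted p = 0.041) that was -0.65 without wild-type replicate 1 (adjusted p = 0.332). It also did not pass without labelled knockout replicate 1 (-1.01, adjusted p = 0.181) or replicate 2 (-1.33, adjusted p = 0.0962). Of the neuroendocrine list 2 of 7 genes and of the airway lineage list 1 of 8 were among the rows used. The latter was TP63, a basal cell factor. It rose with culture in the H2023 labelled knockout from 0.50 and 0.71 TPM to 4.06 and 7.08 TPM (2.00, SE 0.23, adjusted p = 5.10e-05), and the latter exceeded stem-cell-enriched wild type at 1.3 and 1.66 TPM by 1.37 (adjusted p = 0.00618). That TP63 call was not reached with the 8 libraries of the line (adjusted p = 0.0545) or the 4 of the comparison (adjusted p = 0.233). With culture TP63 also rose in A549 wild type, from 0.15 and 0.11 TPM to 2.13 and 1.3 TPM (1.25, adjusted p = 8.59e-04). In the A549 labelled knockout it rose from 0.04 and 0.17 TPM to 0.58 and 1.05 TPM (0.71, adjusted p = 0.0411). In H2023 wild type the culture difference did not pass (0.59, adjusted p = 0.0722).

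**Figure D4:**
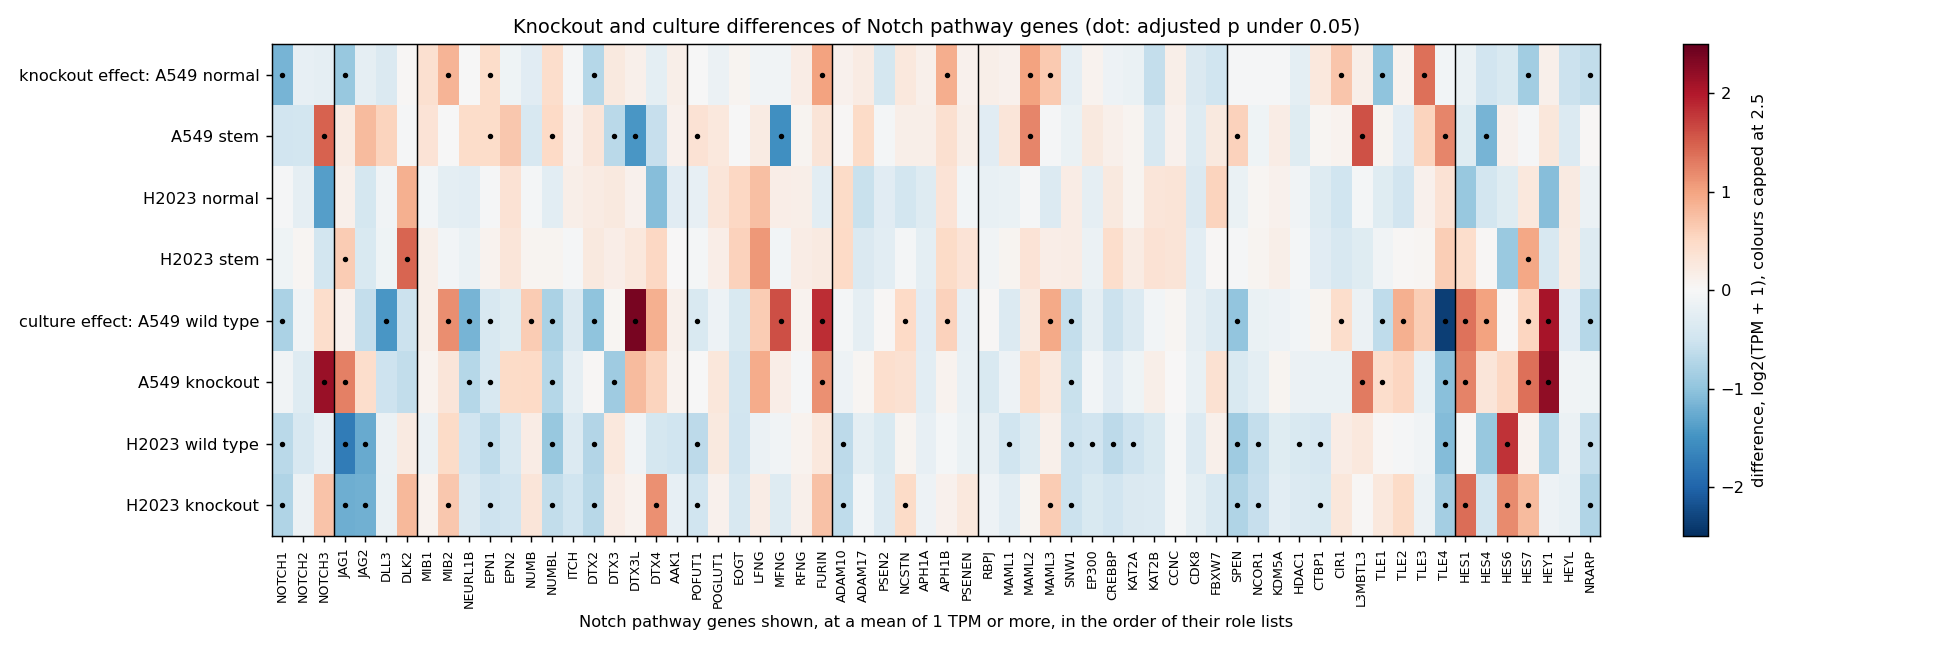
Log2(TPM + 1) differences of most pathway genes with a mean of at least 1 TPM over the 16 libraries (columns, in order of role, with lines between the lists) in the 4 labelled knockout and the 4 culture comparisons (rows). Red is higher and blue lower in the labelled knockout or the stem-cell-enriched culture, colours end at 2.5, and dots mark an adjusted p under 0.05. The H2023 normal row holds no dot, and the H2023 culture rows are mostly blue, with 16 of 17 and 11 of 18 called genes outside the 8 lower, beside 4043 of 4986 and 4146 of 5925 over all genes. Without mitochondrial genes 5 of 7 and 2 of 15 were lower.

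Across the 8 group means, several of the genes followed each other. NRARP had a Pearson r of 0.97 with NOTCH1, 0.97 with NOTCH2 and 0.93 with JAG2, while HES1 had 0.30 with NRARP and 0.32 with HEY1, and JAG1 had 0.01 with HES1. These are descriptions over 8 points that come from the same libraries and hold the difference between lines. Among 10937 genes with a mean of at least 5 TPM, the patterns nearest to that of NRARP were FUBP3 (r = 0.998), WAPL (0.997) and BCAS2 (0.996), and for NOTCH1 they were RCAN1 (0.997), RPF1 (0.994) and DSTNP2 (0.994). NOTCH2 was nearest to NUAK1 (0.997), NOTCH3 to PIGM (0.987) and JAG2 to RHOBTB2 (0.991). The genes whose order mixed the lines had their nearest patterns in FGD6 for JAG1 (0.970), KCTD21 for HES1 (0.981), and KIAA1217 and ARID4A for HEY1 (both 0.975).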

How the data were processed

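RNA of 16 libraries was sequenced after stranded mRNA library preparation from 1 ug of total RNA, per the labels' protocols. HISAT2, StringTie and GRCh38 are named in the submitters' processing notes, and versions and annotation are not given in the sources used here. Each line and culture has its own table, 4 in all. Per the file headers, the deposited values are TPM by library, scaled by gene length and library, so that the depth of each library is unknown. The authors add a signal column (mean normalized count over the libraries of a table), log2 fold changes between genotypes and their errors, a score (the test statistic, opposite in sign to the fold change) and p-values. Each has 18361 rows, and 18227 genes were left after repeated identifiers with identical values were dropped. The mean normalized counts sum to between 20453740 and 22760512 per table.

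From the deposited TPM, log2(TPM + 1) was fitted with limma 3.58.1 under R 4.3.3, its trend option on, 8 groups in 1 fit of all 16 libraries, which then share 1 estimate of the spread (8 residual degrees of freedom), two-sided, with Benjamini-Hochberg adjustment over 18227 genes, a threshold of 0.05 and no filter on low values. The fit was also run on simulated data, in which the groups shared their means apart from a small set of changed genes. That setting is simpler than these data, so no support for the results is drawn from it. Of 16 contrasts, 12 were planned and 4 (line differences of an effect) were added after seeing the data. The members, the lists and the comparisons were chosen with earlier results of these data known. Named pathway genes are, for each list, up to 4 other genes with a mean of at least 1 TPM that pass in a knockout contrast, and likewise in a culture contrast, by size of difference. Likeness names up to 3 genes by Pearson r. The authors' deposited results are named as theirs. Alternatives were another pseudocount (0.1), a filter at a mean of 1 TPM, fits of fewer libraries, other scalings, a block and leaving out each library. Some genes of the lists are counted in them but not reported here by name.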

Additional observations from a re-analysis of the deposited data

Results flagged for a closer look

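Of the tests of whether an effect differs between lines or cultures, 8 passed for these genes. They are given as values only. The labelled knockout difference of JAG1 in A549 was higher in stem-cell-enriched than in normal culture by 1.14 on the log2(TPM + 1) scale (limma, adjusted p = 0.00662). In normal culture the labelled knockout difference was higher in H2023 than in A549 by 1.15 for NOTCH1 (adjusted p = 0.032) and by 1.07 for JAG1 (adjusted p = 0.00628). The culture difference, H2023 minus A549, was -1.85 for JAG1 (adjusted p = 3.29e-04) and -2.83 for HEY1 (adjusted p = 0.00551) in wild type. In the labelled knockout it was -2.49 for JAG1 (adjusted p = 8.01e-05), -1.64 for JAG2 (adjusted p = 0.0304) and -2.33 for HEY1 (adjusted p = 0.0222). JAG1 passed in each of the 4 contrasts named here, and its 4 calls and the wild-type HEY1 call held without each library in turn. The NOTCH1 call and the labelled knockout calls of JAG2 and HEY1 were each lost without several single libraries, as given above. In the order named, 9.71%, 12.1%, 14.1% and 7.21% of all genes were called. The contrasts between lines were added after seeing the data. The change between cultures of H2023 and the labelled knockout difference between lines in stem-cell-enriched culture had 0 of the 8 genes called. Contrasts that share libraries are not independent of each other.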

How the results depend on the processing

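Over the alternatives run, values of the 8 genes kept direction and side of the threshold in 1369 cases, lost a call in 82, gained one in 25 and changed sign in 60, the last only where the gene had not passed. Sign changes on leaving out 1 library gave these ranges of the log2 difference. Labelled knockout minus wild type: A549 normal, HES1 -0.37 to 0.03, HEY1 -0.04 to 0.31, NOTCH3 -0.78 to 0.32. A549 stem-cell-enriched, HEY1 -0.10 to 0.67, NRARP -0.09 to 0.12. H2023 normal, JAG1 -0.04 to 0.30, NOTCH1 -0.16 to 0.12, NOTCH2 -0.49 to 0.02. H2023 stem-cell-enriched, HES1 -0.10 to 0.99, NOTCH1 -0.32 to 0.11, NOTCH2 -0.06 to 0.14. Culture: NOTCH3 -0.21 to 1.10 in A549 wild type, NRARP -0.23 to 0.04 in the A549 labelled knockout, HES1 -0.52 to 0.57 and NOTCH3 -0.53 to 0.12 in H2023 wild type, HEY1 -0.28 to 0.05 and NOTCH2 -0.39 to 0.12 in the H2023 labelled knockout. H2023 minus A549 in stem-cell-enriched wild type: HES1 -0.53 to 0.56. Change of the labelled knockout difference between cultures: HES1 -0.33 to 0.07 and HEY1 -0.24 to 0.53 in A549, HEY1 -0.03 to 1.34, JAG2 -0.24 to 0.37 and NOTCH1 -0.30 to 0.13 in H2023. Between lines: NOTCH2 -0.28 to 0.22 for the labelled knockout difference in normal culture, NOTCH1 -0.09 to 0.34 for the culture difference in wild type, and HES1 -0.23 to 0.56 and NOTCH2 -0.06 to 0.45 in the labelled knockout. Centring on the median turned HES1 between lines (-0.01), HEY1 (0.05) and NOTCH2 (0.03) in H2023 labelled knockout culture, NOTCH3 in H2023 wild-type culture (0.03), JAG2 in the H2023 change between cultures (-0.00065), and the labelled knockout difference of NOTCH2 in H2023 (-0.03) and NRARP in A549 (-0.03), both in stem-cell-enriched culture. Leaving out mitochondrial genes turned the culture difference of NOTCH2 in A549 wild type (0.04) and the H2023 labelled knockout (0.08) and of NOTCH3 in H2023 wild type (0.04). A pseudocount of 0.1 turned HEY1 in the A549 change between cultures (-0.0033), and the authors' deposited table gives NOTCH2 -0.04 in H2023 stem-cell-enriched culture. The cause was not tested.

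Counts of all genes called by limma moved as follows. Leaving out 1 library gave, for labelled knockout minus wild type, 1426 to 2368 (3233 with all libraries) in A549 normal, 2164 to 3030 (3780) in A549 stem-cell-enriched, 103 to 477 (546) in H2023 normal and 314 to 600 (1014) in H2023 stem-cell-enriched culture. For culture it gave 2420 to 2904 (4085) in the A549 labelled knockout, 3285 to 4102 (4986) in H2023 wild type and 3842 to 4655 (5925) in the H2023 labelled knockout. For changes of an effect it gave 657 to 1587 (1770) and 1 to 10 (1) between cultures of A549 and H2023, 1175 to 1908 (2199) and 1911 to 2715 (2966) between lines in normal and stem-cell-enriched culture, and 1363 to 2262 (2574) and 530 to 981 (1315) for culture in wild type and labelled knockout. A fit of the 4 libraries of a comparison called 1971 and 2413 genes in A549 normal and stem-cell-enriched culture, 0 and 0 in H2023 (3314 and 2828 at an unadjusted p under 0.05), and 1105 for culture in H2023 wild type. The 8 libraries of H2023 gave 147 and 281 genes, and 0 for the change between cultures (1294 at an unadjusted p under 0.05), where a filter at a mean of 1 TPM gave 4. In H2023 normal culture the authors' deposited table has 1665 genes. These fits have fewer samples, so the spread is estimated with fewer degrees of freedom.

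Scaling altered the split of higher against lower calls. For A549 normal labelled knockout it was 1334 to 1899, and 1400 to 1657 without mitochondrial genes or 1629 to 1472 centred. For H2023 stem-cell-enriched it was 577 to 437, and 393 to 673 centred. Culture gave 3479 to 4082 in A549 wild type (4241 to 3251 and 3970 to 3619), 943 to 4043 in H2023 wild type (1516 to 1828 and 1876 to 1733) and 1779 to 4146 in the H2023 labelled knockout (2594 to 2414 and 2677 to 2620). H2023 minus A549 in normal culture gave 4847 to 2720, and 3484 to 3870 centred. The A549 change between cultures gave 1022 to 748 (749 to 823 and 676 to 912). Between lines, the labelled knockout difference in normal culture gave 1204 to 995 (923 to 1185 centred), and the culture difference 690 to 1884 in wild type (924 to 1509 and 1094 to 1239) and 307 to 1008 in the labelled knockout (355 to 552 and 449 to 504). The median of genes at a mean of at least 1 TPM shifted by -0.24 and -0.17 with culture in H2023 wild type and labelled knockout, by 0.16 between lines in normal culture, and by -0.15 and -0.17 for the culture difference between lines.

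Wild-type and labelled knockout libraries share replicate numbers. The deviations of same-numbered libraries correlated at 0.0749 and 0.0275 in A549 and H2023 normal and 0.131 and 0.461 in stem-cell-enriched culture (14823 genes). The main fit did not take the numbers as pairs. In H2023 stem-cell-enriched culture, at 0.461, same-numbered libraries did share part of their deviations. With a replicate block, JAG2 in the stem-cell-enriched culture of A549 (0.79, adjusted p = 0.00926) and HES1 in H2023 normal culture (-0.94, adjusted p = 0.0293) also passed, as did NOTCH3 and JAG2 in the A549 change between cultures (adjusted p = 0.0493 and 0.0267) and between lines in stem-cell-enriched culture (-1.93 and -1.17, adjusted p = 0.0229 and 0.0098). HEY1 between lines in normal culture did not (1.02, adjusted p = 0.0551), and the H2023 change between cultures called 7 genes.

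The depth of each library is unknown, and no limit was set on low values such as those of HEY1 and NRARP in single libraries. The authors' mean normalized counts are means over the libraries of a table and were not used for this. Groups of 2 libraries give wide intervals, and a gene that did not pass is not shown to be alike.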
